A study of Mus musculus with 6 samples.

Results

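The small nucleolar RNA (snoRNA) genes of mouse taste cells were followed from 2 to 6 months of age. Members were all rows of the deposited table whose gene symbol starts with Snord or Snora and a digit, and 110 of its 23361 rows matched. Of the 110 genes, 74 were Snord genes, which encode box C/D snoRNAs, and 36 were Snora genes, which encode box H/ACA snoRNAs. Taste receptor cells were taken from the circumvallate (CV) and foliate (Fol) papillae of C57BL/6 mice, with no other genetic change or treatment, from tongues that had been injected with an enzyme solution. Both ages, 2 months and 6 months, had 3 libraries each, and every library was made from the pooled cells of several mice. Poly A selected RNA was sequenced, and the table gives 1 value of the authors per age in FPKM, the number of fragments on a gene scaled by its length and by the size of the library. Since only these pooled values were read, no value below has an SD, no test between the ages could be made, and a difference can be set against other genes but not against the spread between libraries.

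SnoRNAs are short RNAs of the nucleolus that pair with other RNAs and direct their chemical modification. Box C/D snoRNAs guide 2′-O-methylation by fibrillarin, and box H/ACA snoRNAs guide the change of uridine to pseudouridine by dyskerin, mainly in ribosomal RNA and spliceosomal RNA. A few take part in the cleavage of the ribosomal RNA precursor instead. In mouse most snoRNAs have no promoter of their own: they lie in introns of host genes, many of which encode ribosomal proteins and translation factors, and are released when the intron is removed. Mature snoRNAs carry no poly A tail, so a library of poly A selected RNA samples them poorly, and fragments of an unspliced or retained host intron fall on the same bases. In bulk RNA, fewer cells of a type and less RNA per cell cannot be told apart either.

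The sequences of the 6 snoRNA genes with the highest level show the short conserved boxes that define the box C/D class. They are transcript sequences of GENCODE M21 on GRCm38, the build to which the authors mapped their reads, written from 5′ to 3′ as DNA letters. Capitals mark box C as TGATGA within the first 25 bases and box D as the last CTGA, where it lies within the final 25 bases.
Snord37: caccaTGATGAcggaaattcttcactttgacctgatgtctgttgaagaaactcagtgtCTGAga
Snord19: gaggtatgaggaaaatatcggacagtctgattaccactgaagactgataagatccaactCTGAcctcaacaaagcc
Snord69: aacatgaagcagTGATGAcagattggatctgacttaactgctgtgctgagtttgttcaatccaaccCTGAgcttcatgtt
Snord47: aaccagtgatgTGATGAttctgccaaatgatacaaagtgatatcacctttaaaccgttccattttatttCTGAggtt
Snord96a: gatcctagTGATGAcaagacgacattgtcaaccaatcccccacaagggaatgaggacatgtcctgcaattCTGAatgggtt
Snord104: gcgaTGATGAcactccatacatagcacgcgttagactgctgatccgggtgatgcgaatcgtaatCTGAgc
Snord37 lies at chr10:81178950-81179013 on the plus strand, in the gene of translation elongation factor 2 (Eef2). Snord19 at chr14:31016206-31016281 and Snord69 at chr14:31014287-31014366, both on the minus strand, share the nucleolar gene Gnl3, and Snord19 holds no TGATGA. Snord47 at chr1:161038082-161038158 (plus strand) lies in the non-coding host gene Gas5. Snord96a at chr11:48802032-48802112 (plus strand) lies in Rack1, which the table lists as Gnb2l1, and Snord104 at chr11:106500993-106501062 (plus strand) lies in no longer gene of the annotation.

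The 2 box H/ACA genes with the highest level are shown for contrast, with the ACA box near the 3′ end in capitals.
Snora61: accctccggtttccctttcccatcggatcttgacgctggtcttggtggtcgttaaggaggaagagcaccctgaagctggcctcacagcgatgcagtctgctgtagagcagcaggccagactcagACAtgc
Snora65: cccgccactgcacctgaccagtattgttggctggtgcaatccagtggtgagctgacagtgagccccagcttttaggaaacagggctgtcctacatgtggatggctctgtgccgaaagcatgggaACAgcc
Snora61 lies at chr4:132310240-132310369 (plus strand) in the non-coding host gene Snhg12, and Snora65 at chr2:32963291-32963420 (plus strand) in the ribosomal protein gene Rpl12. GENCODE held a sequence for 109 of the 110 genes, and 107 are described here. Of the 72 box C/D sequences among them, 50 (69.4%) held TGATGA on their own strand and 1 on the other strand, and all 72 held CTGA, which 51.4% of the 35 box H/ACA sequences held as well. TGATGA was in 0 of the 35 box H/ACA sequences on either strand. An ACA that starts within the last 10 bases was found in 33 of 35 box H/ACA and in 7 of 72 box C/D sequences, as the class names have it. These matches describe the transcripts only.

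The span that RefSeq gives to a snoRNA gene is often shorter than the transcript. RefSeq spans of GRCm38.p6 were shorter than the GENCODE transcripts for 88 of the 110 genes, and by 10 or more bases for 58. Snord37 has 64 bases in GENCODE and 53 in RefSeq, where the gene starts at base 12, after box C. In 25 of the 47 box C/D genes with TGATGA among the first 25 bases, the RefSeq span starts past the first base of that box. Snora61 has 130 bases in GENCODE and 62 in RefSeq, from base 68 to 129. The median RefSeq span was 68 bases for box C/D and 119.5 for box H/ACA genes. The authors counted on RefSeq genes, whose release may differ from the one used here, and FPKM divides by the length, so a short span raises the value of every fragment.

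Of the 110 snoRNA genes, 82 were above 0 FPKM at 1 age or both, and all 82 averaged 1 FPKM or more over both ages. Genes of the table that reach this average are called detected below, and they number 12652. The other 28 snoRNA genes were listed at 0 at both ages, 24 (32.4%) of the box C/D and 4 (11.1%) of the box H/ACA genes. Another 15 were listed at 0 at 1 age only, 7 of them at 2 months and 8 at 6 months, which leaves 67 with values above 0 at both ages. A 0 in this table does not show that an RNA was absent. Krt13, a keratin of the oral epithelium, was listed at 0 at both ages, and its partner Krt4 at 7334 FPKM at 2 months and at 0 at 6 months, while Krt5 and Krt14 of the basal epithelium stayed between 1287 and 2180 FPKM.

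The median level of the 82 detected snoRNA genes was 93.4 FPKM at 2 months, with quartiles of 26.2 and 388 FPKM. At 6 months it was 103 FPKM, with quartiles of 22.8 and 322 FPKM. All detected genes of the table had medians of 11.8 and 11.7 FPKM. Box C/D genes had medians of 203 and 238 FPKM and box H/ACA genes of 42.2 and 63.1 FPKM at 2 and 6 months. The plot of the levels at both ages shows that box C/D genes fill the upper end. Summed over all members, the values came to 3.85% of the summed FPKM of the table at 2 months and 4.85% at 6 months. The microRNA genes of the table, which are short too, came to 4.82% and 5.95%. The summed FPKM of all genes at 6 months was 0.958 times that at 2 months. Snord37 alone made up 14.1% of the snoRNA sum at 2 months and 25.8% at 6 months. Without Snord37 the shares of the table's sum were 3.31% and 3.60%, so 1 gene carried most of the difference between the ages.

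**Figure D1:**
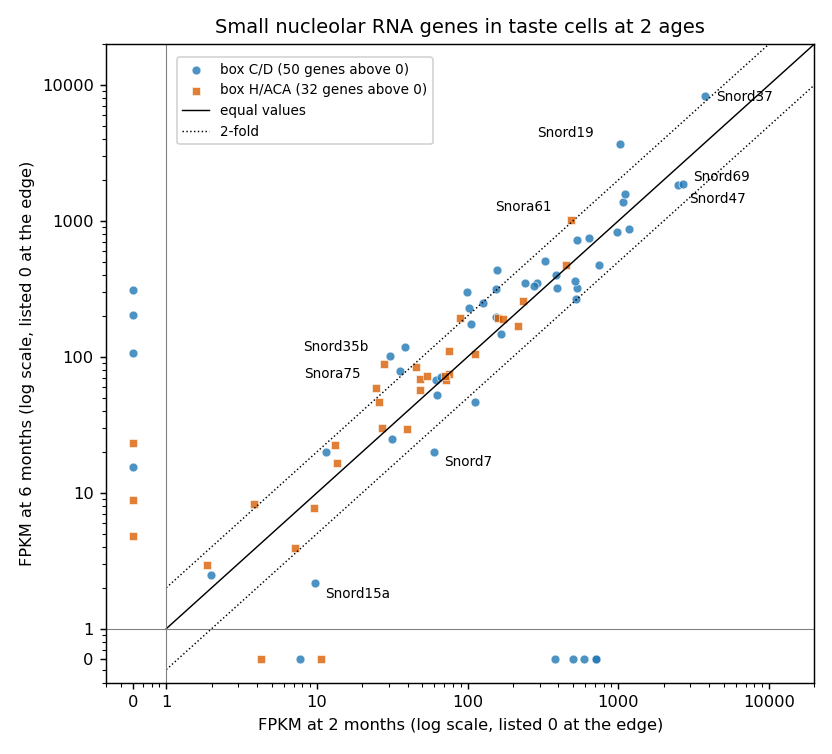
FPKM of each snoRNA gene at 2 months (horizontal) and 6 months (vertical), both on log scales, with genes listed at 0 at 1 age on the edge. Points stand for the 82 genes above 0 at 1 age or both, the solid line for equal values and the dotted lines for a 2-fold difference. Snord37 sits highest at 3772 and 8348 FPKM, and 15 genes lie on the edges.

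Snord37, whose host Eef2 encodes the factor that moves the ribosome along the mRNA, was the highest member, at 3772 FPKM in the younger and 8348 FPKM in the older mice. Eef2 itself had 1053 and 1119 FPKM. Snord19 had 1029 and 3648 FPKM, whereas Snord69 in another intron of the same gene, Gnl3, had 2670.0 and 1858 FPKM. The 2 genes thus differed in opposite directions while Gnl3 was at 34.1 and 35.7 FPKM. Snord47 of Gas5 had 2497 and 1828 FPKM, and Gas5 had 52.4 and 53.9 FPKM. Snord96a had 1099 and 1581 FPKM, and Snord104 1067 and 1379 FPKM. Of the remaining 4 among the 10 highest, Snord100 of Rps12 went from 1173 to 876 FPKM and Snord34 of Rpl13a from 981 to 821 FPKM. Snora61, the only box H/ACA gene among the 10, went from 487 to 1011 FPKM, and Snord12 of Zfas1 from 635 to 744 FPKM. The RefSeq spans of the 10 are 53 to 77 bases. Of these 10 genes, 6 were higher at 6 months and 4 lower, and 3 reached 2-fold, Snord37, Snord19 and Snora61, all of them higher.

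The level of a snoRNA gene followed the length of its RefSeq span. Across the 82 detected members, the span and the mean FPKM had a rank correlation of -0.71, a description across genes that share the same libraries and the same division by length. All 7 members with a span under 53 bases were listed at 0 at both ages, as were all 10 genes of any kind in the table below that span. The lowest value above 0 gives a view of what few fragments are worth. Among the 32 genes of any kind with a span of up to 60 bases, the lowest value above 0 at either age was 265 FPKM. It was 54.8 FPKM for the next class of up to 70 bases, 15.5 FPKM up to 80, 4.14 FPKM up to 100, 3.44 FPKM up to 120, 1.47 FPKM up to 150 and 1.88 FPKM up to 221 bases. From 265 to 1.47 FPKM these values fall far more steeply than the spans grow. Some are values of members themselves: at 6 months 265 FPKM is Snord52 and 15.5 FPKM Snord1a, and 1.88 FPKM is Snora74a at 2 months. Multiples of the lowest value given below are thus not set against an outside reference. They use the lowest value of the whole class, called that of the span, wherever a gene lies within the class. The length by which the authors' software divided is not given here. For the shortest genes even a high FPKM can thus be close to the lowest that a gene of its span shows, and how many fragments lie behind it is not known here.

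**Figure D2:**
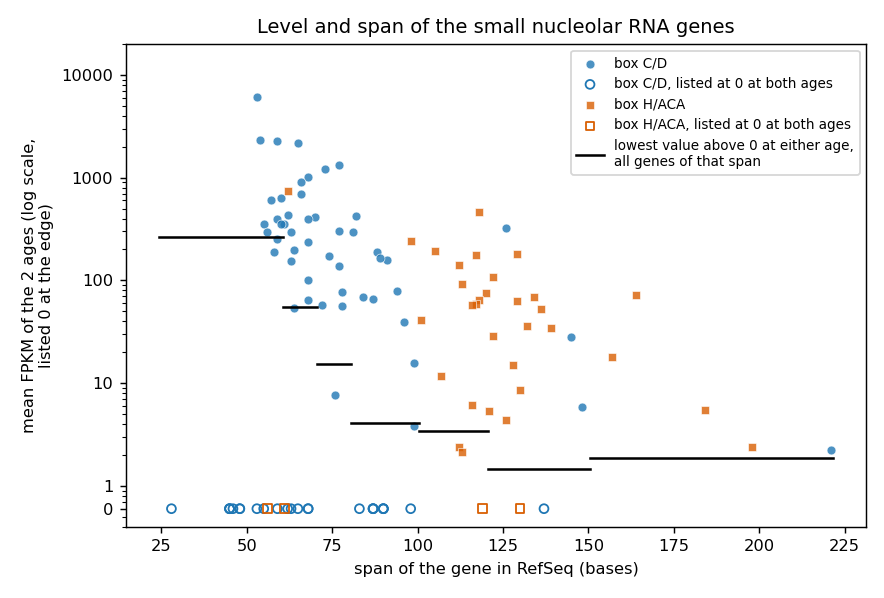
Mean FPKM of both ages (log scale) against the RefSeq span in bases for the 110 snoRNA genes, with the 28 genes listed at 0 at both ages as open symbols at the bottom. Black steps give the lowest value above 0 at either age among all genes of that span, from 265 FPKM at up to 60 bases to 1.47 FPKM at 121 to 150 bases; a mean can fall under a step where 1 age is listed at 0.

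Levels at 6 months were compared with those at 2 months as the difference of log2(FPKM + 1), 6 months minus 2 months, and a gene was counted as different at a difference of at least 2-fold on that scale. Of the 82 detected snoRNA genes, 20 were at least 2-fold higher at 6 months and 11 at least 2-fold lower. Over all 12652 detected genes, 0.561% were at least 2-fold higher and 1.04% at least 2-fold lower, or 1.6% in all, against 37.8% of the snoRNA genes. The count of 31 includes the 15 genes listed at 0 at 1 age, for which no fold can be given. Among the 67 genes above 0 at both ages, 13 were at least 2-fold higher and 3 at least 2-fold lower, or 23.9% in all. Over the 12573 detected genes above 0 at both ages, 40 were at least 2-fold higher and 83 at least 2-fold lower, 0.978% in all. The median difference of the 82 genes was 0.24 on the log2 scale, with quartiles of -0.34 and 0.96, and the median over all 12652 genes was -0.01. Of the 67 genes above 0 at both ages, 45 were higher at 6 months and 22 lower. Over all 12573 genes of this kind, 5823 were higher and 6750 lower.

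Box C/D and box H/ACA genes were set side by side. For the 50 detected box C/D genes the median difference was 0.22 with quartiles of -0.52 and 1.02, and for the 32 detected box H/ACA genes 0.26 with quartiles of -0.03 and 0.89. Among those above 0 at both ages, 25 box C/D genes were higher at 6 months and 15 lower, and 20 box H/ACA genes were higher and 7 lower. A difference of at least 2-fold was seen in 12 of 40 box C/D and 4 of 27 box H/ACA genes of this kind, and no test between the classes was made.

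MicroRNA genes are another class of short RNA genes. Of the detected microRNA genes, 85 of 134 (63.4%) were at a difference of at least 2-fold, 36 higher and 49 lower at 6 months, and 59 of the 134 are listed at 0 at 1 age. Among the 75 above 0 at both ages, 26 (34.7%) reached 2-fold, 15 higher and 11 lower, where the snoRNA genes had 16 of 67 (23.9%). Of these 75 microRNA genes, 48 were higher at 6 months and 27 lower, with a median difference of 0.22. The 67 snoRNA genes had 45 higher and 22 lower with a median of 0.25, so the lean upward was not particular to them. The plot of the size of the difference sets these beside the snoRNA genes, their host genes and all genes. Detected genes other than short non-coding RNA reached 2-fold in 81 of 12426 cases (0.652%).

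**Figure D3:**
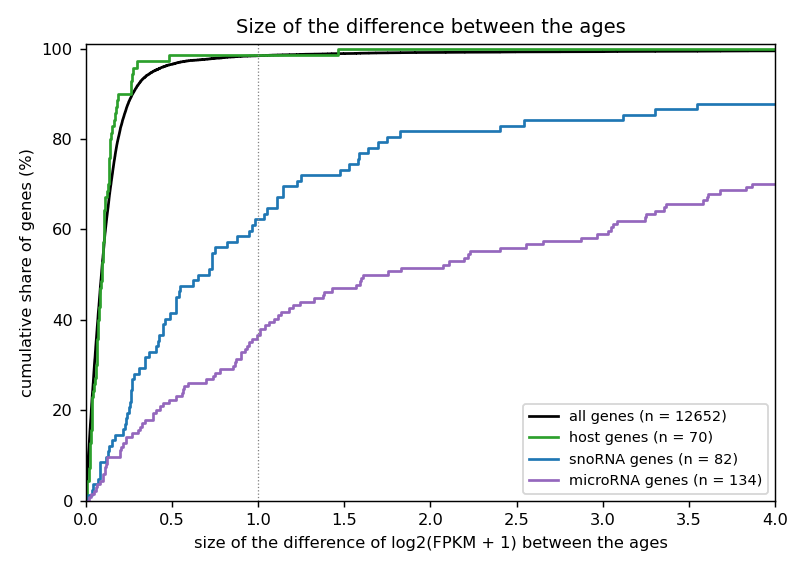
Cumulative share of genes (%) against the size of the difference of log2(FPKM + 1) between the ages, for detected genes; the dotted line marks 2-fold. Host genes (n = 70) follow all genes (n = 12652), while 37.8% of the snoRNA genes (n = 82) and 63.4% of the microRNA genes (n = 134) lie to the right of the line.

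Members were also divided by their mean of both ages against the lowest value above 0 of their span. The mean was at least 5 times that value for 53 genes, all of them above 0 at both ages, and 12 of them (22.6%) differed by at least 2-fold, 10 higher and 2 lower at 6 months. In this set 36 genes were higher at 6 months and 17 lower, with a median difference of 0.25. Of the other 29 detected members, 19 (65.5%) differed by at least 2-fold, 10 higher and 9 lower, with the 15 listed at 0 at 1 age counted in. Without those 15, 4 of the remaining 14 (28.6%) differed by at least 2-fold, 3 higher and 1 lower. The limit of 5 times was chosen after the values were seen, and no test between the sets was made.

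The 5 largest rises among genes above 0 at both ages were those of Snord19, Snord35b, Snora75, Snord71 and Snord55. Snord19, from 1029 to 3648 FPKM, had a log2 difference of 1.82, and was at 3.88 and 13.7 times the lowest value of its span class. That value comes from Snord52 with a span of 59 bases, while Snord19 has 54, so these multiples may be too high. Snord35b went from 30.4 to 100.7 FPKM, a log2 difference of 1.70. An annotated exon on the opposite strand covers 56.3% of Snord35b, and the counting is not stated to use strand. Snora75, in the gene of nucleolin (Ncl), an abundant nucleolar protein, went from 27.8 to 88.7 FPKM, a log2 difference of 1.64, while Ncl had 72.6 and 74.0 FPKM. Snord71 of Ap1g1 went from 98.5 to 298 FPKM and Snord55 from 38.4 to 117 FPKM, with log2 differences of 1.59 and 1.58. At 2 months Snord71 and Snord55 were at only 1.80 and 2.48 times the lowest value of their span, against 7.34 times for Snord35b and 8.07 times for Snora75.

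The 5 largest falls among genes above 0 at both ages ran from a log2 difference of -1.75 to -0.73. Snord15a of Rps3 went from 9.64 to 2.16 FPKM, a log2 difference of -1.75, and reached 1.47 times the lowest value of its span at 6 months. Snord15b in another intron of Rps3 had 31.3 and 24.98 FPKM. Snord7 of AA465934 went from 59.5 to 20.0 FPKM (log2 difference -1.53) and Snord89 of Gm15832 from 112 to 46.7 FPKM (-1.25). Snord52 went from 526 to 265 FPKM (-0.98), where 265 FPKM is itself the lowest value of its span, and Snora23 of Ipo7 from 7.15 to 3.91 FPKM (-0.73). Of these, Snord89 was the gene farthest above the lowest value at both ages, at 27.1 and 11.3 times.

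The 5 highest genes listed at 0 at 1 age all had a value at 2 months and 0 at 6 months. They were Snord42b with 709 FPKM, Snord91a with 706, Snord99 with 591, Snord38a with 503 and Snord66 with 380.7 FPKM at 2 months. Their spans are 55 to 60 bases, and their values were 1.43 to 2.67 times the lowest value of that span. Of the 15 genes at 0 at 1 age, 11 were under 5 times the lowest value at the other age. The 4 that were not are Snord49b, at 0 and 312 FPKM, Snora30 with 0 and 23.2 FPKM, Snora47 with 0 and 8.84 FPKM, and Snora26 with 10.7 and 0 FPKM. Apart from Snord49b, Snora26, Snora30 and Snora47 were picked out after their values were seen.

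Most members lie inside another gene. A longer gene on the same strand of the GENCODE annotation holds 106 of the 110, and for 98 of these the host is in the table, in 71 host genes. The 4 without a host are Snord104, Snord118, Snora17 and Snora43. By position, 56 members lie mainly in introns, 34 at least 50% in an intron that an annotated transcript retains, and 16 at least 50% in an exon of another transcript on the same strand. Listed at 0 at both ages were 19 of the 56, 5 of the 34 and 3 of the 16. Median levels of detected members at 2 months were 66.5 FPKM for introns, 159 FPKM for retained introns and 62.5 FPKM for exons, and at 6 months 70.7, 169 and 68.5 FPKM. Fragments of the host and of the snoRNA on the same bases cannot be told apart, in exons and retained introns above all.

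Host genes differed little between the ages, while the snoRNA genes inside them spread. Of the 70 detected host genes, all above 0 at both ages, 1 differed by at least 2-fold (1.43%). The median size of the difference was 0.10 on the log2 scale for these hosts. It was 0.68 for the 82 detected snoRNA genes and 0.49 for the 67 of them above 0 at both ages. The 1 host past 2-fold was Snhg9, which went from 1.92 to 7.05 FPKM, and its member Snora78 went from 13.2 to 22.6 FPKM. Of 61 members above 0 at both ages with a host in the table, 29 differed in the same direction as the host. Across these 61 genes in 48 hosts the log2 differences of member and host had a rank correlation of 0.08. The levels had a rank correlation of 0.35 over 75 members in 56 hosts. Both are descriptions across genes that share libraries, and members of 1 host share a transcript.

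Hosts with 3 or 4 members above 0 show the spread inside 1 transcript. Rpl13a, a ribosomal protein gene of the large subunit, had 1797 and 1666 FPKM. Its member Snord32a went from 239.8 to 350.1 FPKM and Snord35a from 102 to 227 FPKM, while Snord33 went from 528 to 321 FPKM and Snord34 from 981 to 821 FPKM. Both directions thus occur among 4 introns of the same gene. Snhg12, a non-coding host gene, had 51.6 and 42.5 FPKM. Its box H/ACA members Snora16a, Snora44 and Snora61 had log2 differences of 0.23, 0.49 and 1.05, and its box C/D member Snord99 was listed at 0 at 6 months. All 4 lie at least 50% in an annotated exon of Snhg12. In 1810032O08Rik, at 17.4 and 15.3 FPKM, the 3 genes Snord1a, Snord1b and Snord1c were all higher at 6 months, with Snord1a at 0 and 15.5 FPKM, Snord1b at 105 and 175 FPKM and Snord1c at 35.6 and 78.1 FPKM. Snord1b and Snord1c share 97.4% of the bases of the longer, so reads can be split between them. In 2410006H16Rik, Snord49a and Snord65 were lower, at 516 and 359 FPKM and at 749 and 476 FPKM, and Snord49b was listed at 0 at 2 months.

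**Figure D4:**
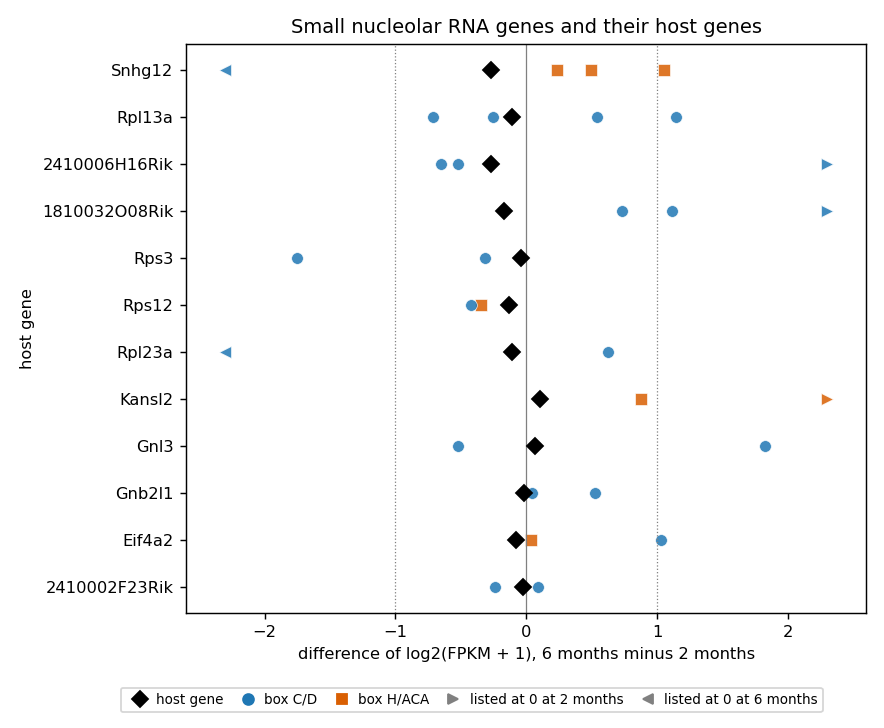
Difference of log2(FPKM + 1), 6 months minus 2 months, for 12 host genes (black diamonds) that hold at least 2 snoRNA genes above 0, and for their 30 members (circles for box C/D, squares for box H/ACA). Triangles at the edges mark genes listed at 0 at 1 age, for which no size is given; the dotted lines mark 2-fold. Host genes lie near 0, and in Gnl3 and Rpl13a members lie on both sides of the host.

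Ribosomal protein genes were the largest class of hosts by name. They held 32 members in 23 hosts, of which 27 were detected, 15 higher and 12 lower at 6 months, with a median difference of 0.13. The 10 detected members in Gas5, Snhg genes, Dancr and Zfas1 had a median difference of 0.25, and the 6 in translation factor genes of the Eef and Eif families of 0.29. All other hosts, 34 genes, held 48 members, of which 16 were listed at 0 at both ages. Their 32 detected members had the largest median difference, 0.63, with 21 higher and 11 lower at 6 months. Hosts named as ribosomal proteins had a median of 1764 FPKM over both ages. Of their 32 members, 5 were listed at 0 at both ages, where 25.5% of all members were. Snord42a, Snord43 and Snord68 among them have RefSeq spans under 53 bases, where all 10 genes of any kind were listed at 0.

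A high level of the host did not go with a value for the member in every case. Of 23 members listed at 0 at both ages with a host in the table, 8 had a host of at least 100 FPKM. Among detected members with a host in the table, 42 of 75 had such a host. The 8 include Snord42a, Snord43 and Snord68, whose spans are under 53 bases. Snord14c and Snord14d, which take part in the processing of 18S ribosomal RNA, lie in Hspa8, a chaperone gene with 1303 and 1186 FPKM, and both were listed at 0 at both ages. Snord14a of Rps13, at 1274 and 1190 FPKM, was listed at 0 too. Their sequences show how alike such copies are.
Snord14c: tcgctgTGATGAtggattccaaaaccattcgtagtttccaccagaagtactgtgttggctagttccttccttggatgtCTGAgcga
Snord14d: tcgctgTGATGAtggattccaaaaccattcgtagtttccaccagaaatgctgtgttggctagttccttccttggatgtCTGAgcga
Snord14c at chr9:40803583-40803668 and Snord14d at chr9:40803995-40804080, both on the plus strand, share 84 of 86 bases (97.7%), with box C and box D in capitals, and Snord14a shares 83.9% with Snord14c. How the authors' software placed reads that match several copies is not stated beyond default parameters. Snord88a and Snord88c of 2410002F23Rik share 94.4% of their bases and had 62.5 and 52.7 FPKM, and 66.5 and 70.7 FPKM, at 2 and 6 months.

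Of 5 members listed for a role in the cleavage of ribosomal RNA, 4 were at 0 at both ages, Snord118 and the 3 related genes Snord14a, Snord14c and Snord14d, where 25.5% of all members were. Snord118, or U8, is needed for the large subunit RNAs and has its own promoter. The fifth, Snord22, had values of 290.4 and 349.9 FPKM in Snhg1, with a log2 difference of 0.27. It lies in an intron that annotated transcripts of Snhg1 retain, and 46.8% of it also lies in an exon of other Snhg1 transcripts. Snhg1 itself had 192 and 179 FPKM. The 2 values of Snord22 were 197 and 238 times the lowest value of its span. Snora62, which has also been linked to ribosomal RNA processing and was not listed, had 9.57 and 7.71 FPKM. Snord116, Snord116l1 and Snord116l2 of the imprinted Prader-Willi region, a cluster known to be expressed in neurons, were listed at 0 at both ages. Snord116l1 and Snord116l2 have the same sequence in GENCODE. Snora35, in the serotonin receptor gene Htr2c at 0.00794 and 0 FPKM, and Snord64 of the same imprinted region were also at 0 at both ages, both picked out after their values were seen.

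The genes of the proteins that snoRNAs work with were near level in RNA between the ages. Of the core box C/D proteins, fibrillarin (Fbl), the methyltransferase, had 138 and 127 FPKM, Nop56 51.9 and 54.7 FPKM, Nop58 57.1 and 52.9 FPKM, and Nhp2l1 102 and 94.5 FPKM. Of the core box H/ACA proteins, dyskerin (Dkc1), the pseudouridine synthase, had 24.3 and 23.0 FPKM, Nhp2 100.5 and 99.4 FPKM, Nop10 103.9 and 86.4 FPKM, and Gar1 32.2 and 29.7 FPKM. Of the 8 core genes 1, Nop56, was higher at 6 months and 7 lower, with log2 differences from -0.26 to 0.08, and 0 reached 2-fold. Among 21 genes of snoRNP assembly and RNA processing, which include the helicases Ruvbl1 and Ruvbl2 and the debranching enzyme Dbr1, 7 were higher and 14 lower, with a median difference of -0.08 and a range from -0.18 to 0.14. Of the 12 non-coding host genes Gas5 and Snhg, 5 were higher and 7 lower, with a median of -0.01, and Snhg9 was the 1 past 2-fold.

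Markers of the cells in the samples were read from the same table. The taste cell genes Gnat3, Trpm5, Plcb2 and Tas1r3 of type II cells had 10.3 to 84.7 FPKM, and the 4 type III genes 1.41 to 14.0 FPKM over both ages. Of the type I cell genes, Entpd2 had 66.1 and 57.7 FPKM and Slc1a3 0.710 and 0.988 FPKM. Summed levels at 2 and 6 months were 7.11 and 16.4 FPKM for 4 skeletal muscle genes, 132 and 43.5 FPKM for 3 lingual gland genes, 1325 and 754 FPKM for 2 genes of the cornified layer, 42.3 and 27.4 FPKM for 3 fibroblast genes, 119 and 125 FPKM for 3 leukocyte genes and 22.8 and 18.6 FPKM for 3 neuron genes, 1 of which, Snap25, also marks type III cells. Single genes carried some of these sums: Dcn had 42.03 and 27.3 FPKM of the fibroblast sum, with Col1a1 and Col3a1 under 1 FPKM, and of the neuron genes Tubb3 had 14.97 and 9.83 FPKM, Snap25 7.78 and 8.71 FPKM and Rbfox3 0.0510 and 0.0430 FPKM. The part of other cell types in the snoRNA differences was not tested. Of the nuclear long non-coding RNAs, Malat1 and Neat1 had 125 and 131 FPKM and 291 and 291 FPKM, and Xist had 42.6 and 32.3 FPKM.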

How the data were processed

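Per the labels, poly A selected RNA of taste cells was sequenced in 3 libraries of each age, each from a pool of mice. Mapping to GRCm38/mm10 was done by the authors with TopHat (TopHat2 2.0.7 in the submitters' processing notes) on the RefSeq genes of iGenomes, followed by Cufflinks 2.1.1 for FPKM and Cuffdiff for the ages, whose library normalization is not given in the sources used here. The authors deposited 1 FPKM value per age for 23361 genes; the column of letter B was taken as 6 months and that of letter S as 2 months, after the sample titles. The deposited p-value of each gene is from the authors' own comparison and was not used. Single-library values and their depth were not analysed here, so precision is unknown and the test planned for replicates was not run. The design text of the series names 3 months in 1 place where the labels give 2 months. The table holds 27 gene names turned into dates and 2 repeated names, none of them a snoRNA gene.

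Differences were taken on log2(FPKM + 1) for genes that averaged 1 FPKM or more. All 110 members were matched by symbol or synonym to RefSeq on GRCm38.p6 for the span, and sequences, exons and hosts came from GENCODE M21, where a host is a longer gene on the same strand around the span, with genes of the table, coding genes and the shortest taken first in that order where several fit. Genes named are the 10 highest, the 5 largest rises and falls, the 5 highest listed at 0 at 1 age, members of hosts with 3 or more and those with a role in rRNA cleavage or in the Prader-Willi region, with their hosts. Members and lists were chosen with earlier results of these data known. Some items, among them a few host genes, are not reported here by name. Alternatives were other pseudocounts, filters, a scaling and subsets of members. Python 3.11.15, pandas 2.3.3, numpy 2.4.6, scipy 1.17.1, biopython 1.88 and matplotlib 3.10.9 were used.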

Additional observations from a re-analysis of the deposited data

How the results depend on the processing

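No paired analysis was possible because single-library values were not analysed here, and for the same reason leaving out each replicate was not run. Without a spread, each median that moved at the second decimal is given. The median log2 difference of the snoRNA genes, 0.24, was 0.27 with a pseudocount of 0.1 FPKM and 0.18 with 10 FPKM, 0 with no filter, since 28 genes are at 0 at both ages, 0.26 with a mean of at least 10 FPKM, 0.26 with both ages at the same upper quartile, 0.25 for genes above 0 at both ages and 0.23 without members in an exon. The count of genes at least 2-fold higher, 20, was 13 for genes above 0 at both ages and 6 of the 34 with a span of at least 100 bases. The count at least 2-fold lower, 11, was 7 with a mean of at least 10 FPKM, 3 for genes above 0 at both ages and 3 with a span of at least 100 bases. The share of the summed FPKM at 2 and 6 months, 3.85% and 4.85%, was 4.22% and 5.44% against the sum without short non-coding RNA, and 3.31% and 3.60% without Snord37. The subsets by exon and by span were chosen after seeing the data. Under the other settings the counts of 2-fold differences and the number of detected snoRNA genes (82, or 70 at 10 FPKM) moved by less than 1.5 times. Multiplying the 6 month values by 1.02, as the upper quartile asks, moved the median of all genes from -0.01 to 0.01.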

Other observations

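The small Cajal body RNAs (scaRNA), which guide the same modifications on spliceosomal RNA, are a related class. Of 9 scaRNA genes in the table, 3 were listed at 0 at both ages and 2 at 2 months only. Scarna17 went from 358 to 141 FPKM and Scarna2 was listed at 0 at 2 months and at 164 FPKM at 6 months, while Scarna13 had 1.13 and 1.12 FPKM. Among other short non-coding RNAs with roles in RNA cleavage, Rmrp, the RNA of RNase MRP, had 9.86 and 7.53 FPKM, and Rpph1, the RNA of RNase P, had 4.78 and 3.47 FPKM. Rnu73b went from 127 to 378 FPKM. RefSeq calls 9 further rows of the table snoRNA genes that the symbols do not show, of which AF357399 had 79.6 and 130.4 FPKM, Gm12238 had 13.0 and 0 FPKM, and the other 7 were listed at 0 at both ages. These genes were picked out after their values were seen.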
